A study of Mus musculus with 11 samples.

Results

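The 38 genes described here encode the subunits of the mouse proteasome. They were chosen by name: the genes of the 20S core particle, the 19S cap and the activators, with the 3 interferon-inducible catalytic subunits of the immunoproteasome (Psmb8, Psmb9 and Psmb10) and the thymus-specific catalytic subunit of the thymoproteasome (Psmb11). All 38 were found among the 56691 genes of the count table, of which 52073 had a symbol. No threshold on a measured value was used to choose them, but earlier results of these data were known when they were chosen. By role they comprise 7 alpha-ring genes (Psma1 to Psma7), 4 non-catalytic beta-ring genes (Psmb1 to Psmb4), 3 constitutive catalytic genes (Psmb5, Psmb6, Psmb7), the 3 immunoproteasome genes, Psmb11, 6 ATPases of the cap (Psmc1 to Psmc6), 3 other genes of the cap's base, 8 genes of its lid and 3 activator genes (Psme1, Psme2, Psme3).

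The libraries came from thymic epithelial cells of NOD mice, an inbred strain prone to autoimmune diabetes, that carried the Aire variant R249C, an amino acid change in the protein's SAND domain, on both alleles, on a single allele or on none. Aire is the transcriptional regulator through which mature medullary thymic epithelial cells express tissue-restricted genes. There were 3 R249C/R249C libraries, 5 WT/R249C libraries and 3 WT/WT libraries, from mice aged 4 to 8 weeks in every group, with no other allele or treatment named. Thymus was digested, CD45-expressing cells were removed with beads, EpCAM-expressing cells were sorted, and low-input RNA libraries were sequenced. All R249C/R249C libraries, WT/R249C replicates 1 to 3 and WT/WT replicate 1 were of batch A in the labels, and WT/R249C replicates 4 and 5 and WT/WT replicates 2 and 3 of batch B. The labels of WT/R249C replicates 4 and 5 disagree: title and library name give WT/R249C, and the genotype field gives R249C/R249C. They were placed by title. Titles call the libraries biological replicates, but how many mice each pools is not given, so p-values measure the spread between these libraries only.

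The proteasome degrades ubiquitin-tagged proteins inside a barrel of stacked rings. The outer alpha rings gate it, the inner beta rings cut, and the 19S cap binds, unfolds and feeds in the substrate. The cut peptides are a main source of what MHC class I molecules show to CD8 T cells. Interferon gamma makes cells replace the constitutive catalytic subunits by those of the immunoproteasome. In cortical thymic epithelial cells Psmb11 takes the place of Psmb5. It alters the peptides shown during positive selection and is needed for a full repertoire of CD8 T cells.

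Library totals ran from 60560348 counts in WT/R249C replicate 3 to 182319976 in WT/WT replicate 3, and WT/R249C replicate 3 also had the fewest genes with a count, 22101. The 55 correlations between pairs of libraries, on the log of CPM, each count divided by the total of its library and put on 1 scale, ran from 0.722 to 0.867. The summed level of 5 epithelial markers was 2812 to 3857 CPM in R249C/R249C, 2410 to 4510 CPM in WT/R249C and 2230.3 to 3084 CPM in WT/WT libraries, and Epcam, the sort marker, stood at 355 CPM or more in each library. Ptprc, which encodes CD45, stood at 6.95 to 17.6 CPM in R249C/R249C, 0.217 to 18.8 CPM in WT/R249C and 13.6 to 26.2 CPM in WT/WT libraries. The 6 thymocyte markers summed to 60.1 to 117 CPM in R249C/R249C, 72.5 to 150.2 CPM in WT/R249C and 129.8 to 203 CPM in WT/WT libraries. The 4 B cell markers summed to 1.31 to 10.2 CPM in R249C/R249C, 0 to 10.3 CPM in WT/R249C and 14.7 to 19.9 CPM in WT/WT libraries. Of these, Ms4a1 was at 0 in all R249C/R249C libraries, which allows up to 0.0326 CPM in the shallowest of them. The 4 fibroblast markers summed to 1165 to 2163 CPM in R249C/R249C, 847 to 1934 CPM in WT/R249C and 1342 to 1953 CPM in WT/WT libraries. The 6 mature medullary markers summed to 2169 to 3568 CPM in R249C/R249C, 2009 to 3267 CPM in WT/R249C and 1771 to 3184 CPM in WT/WT libraries. The 6 cortical markers, Psmb11 among them, summed to 1344 to 2245 CPM in R249C/R249C, 1538 to 3387 CPM in WT/R249C and 1330 to 1846 CPM in WT/WT libraries. Myeloid and endothelial marker sums overlapped between genotypes. The B cell sums of the WT/WT libraries thus lay above those of both other genotypes, and their thymocyte sums above those of R249C/R249C. The part of these differences in the results below was not tested.

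All 38 subunit genes were expressed in every library. Together they took 6972 ± 677 CPM in R249C/R249C (SD, n = 3), 7512 ± 658 CPM in WT/R249C (n = 5) and 7117 ± 636 CPM in WT/WT libraries (n = 3), and the groups overlapped. Among single genes, levels were compared as mean CPM over all 11 libraries per kilobase of the principal transcript. Psma7, an alpha-ring subunit, led with 456 CPM per kb and Psme2, a subunit of the interferon-inducible activator, followed with 454. Psmb6, the constitutive caspase-like subunit, came next with 387 CPM per kb. The immunoproteasome subunit Psmb8, the inducible chymotrypsin-like subunit, was next with 233 CPM per kb. Between the lowest libraries of Psma7 and Psme2 and the highest, levels ran from 354 to 575 and from 250.1 to 580.3 CPM per kb, so the order of these 2 genes is not separated from their spread. At the low end, Psmb5, the constitutive chymotrypsin-like subunit, the lid subunit Psmd3 and the lid subunit Psmd13 stood at 42.8, 42.7 and 42.6 CPM per kb and cannot be ordered. Psmb11 was the lowest of the 38 with 16.3 CPM per kb, over a single-exon transcript of 4247 bases. Its place rests on that length: its mean of 69.1 CPM lay above those of Psmb5, 38.5, and Psmb7, 65.0.

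Most subunits varied little between libraries. The SD of log2 CPM over the 11 libraries had a median of 0.27 over the 38 genes, against 0.54 over the 26980 genes tested and 0.39 over the 5470 tested genes whose mean CPM lay in the subunits' range of 38.5 to 436. Those 5470 genes were not matched to the subunits in level within that range, and whether level has a part in the difference was not tested. The value of 30 of the 38 subunits lay below that last median. The other 8 were 4 catalytic subunits (Psmb11, Psmb7, Psmb5 and Psmb9), Psma1, Psmb4, Psme1 and Psme2. Psmb11 had the largest SD, 0.76, with a 7.34-fold difference between its highest and lowest library. Psmb7, the constitutive trypsin-like subunit, had an SD of 0.69 and Psmb5 of 0.57. Psmb9, the inducible subunit that replaces Psmb6, had 0.50 and the alpha-ring subunit Psma1 had 0.47. The non-catalytic beta subunit Psmb4 had 0.45, and the activator subunits Psme1 and Psme2 had 0.44 and 0.43. At the other end stood Psmd7, a lid subunit that pairs with the deubiquitinase Psmd14, and Psmc1, an ATPase of the cap, each with an SD of 0.13.

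Extreme values fell mostly in a few libraries. WT/WT replicate 1 held the lowest of the 11 values for 12 subunits, R249C/R249C replicate 2 for 11 and WT/R249C replicate 3 for 10. WT/R249C replicate 4 held the highest value for 9 subunits and WT/R249C replicate 3 for 7. The shallowest library, WT/R249C replicate 3, was thus at both extremes: it was lowest for Psmb11, Psmb8, Psmb9 and Psma1, and highest for Psmb6, the ATPase Psmc4 and the nuclear activator Psme3. Whether its depth has a part in this was not tested. The low values of WT/WT replicate 1 bear on each comparison with WT/WT, since no other WT/WT library is of batch A.

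**Figure D1:**
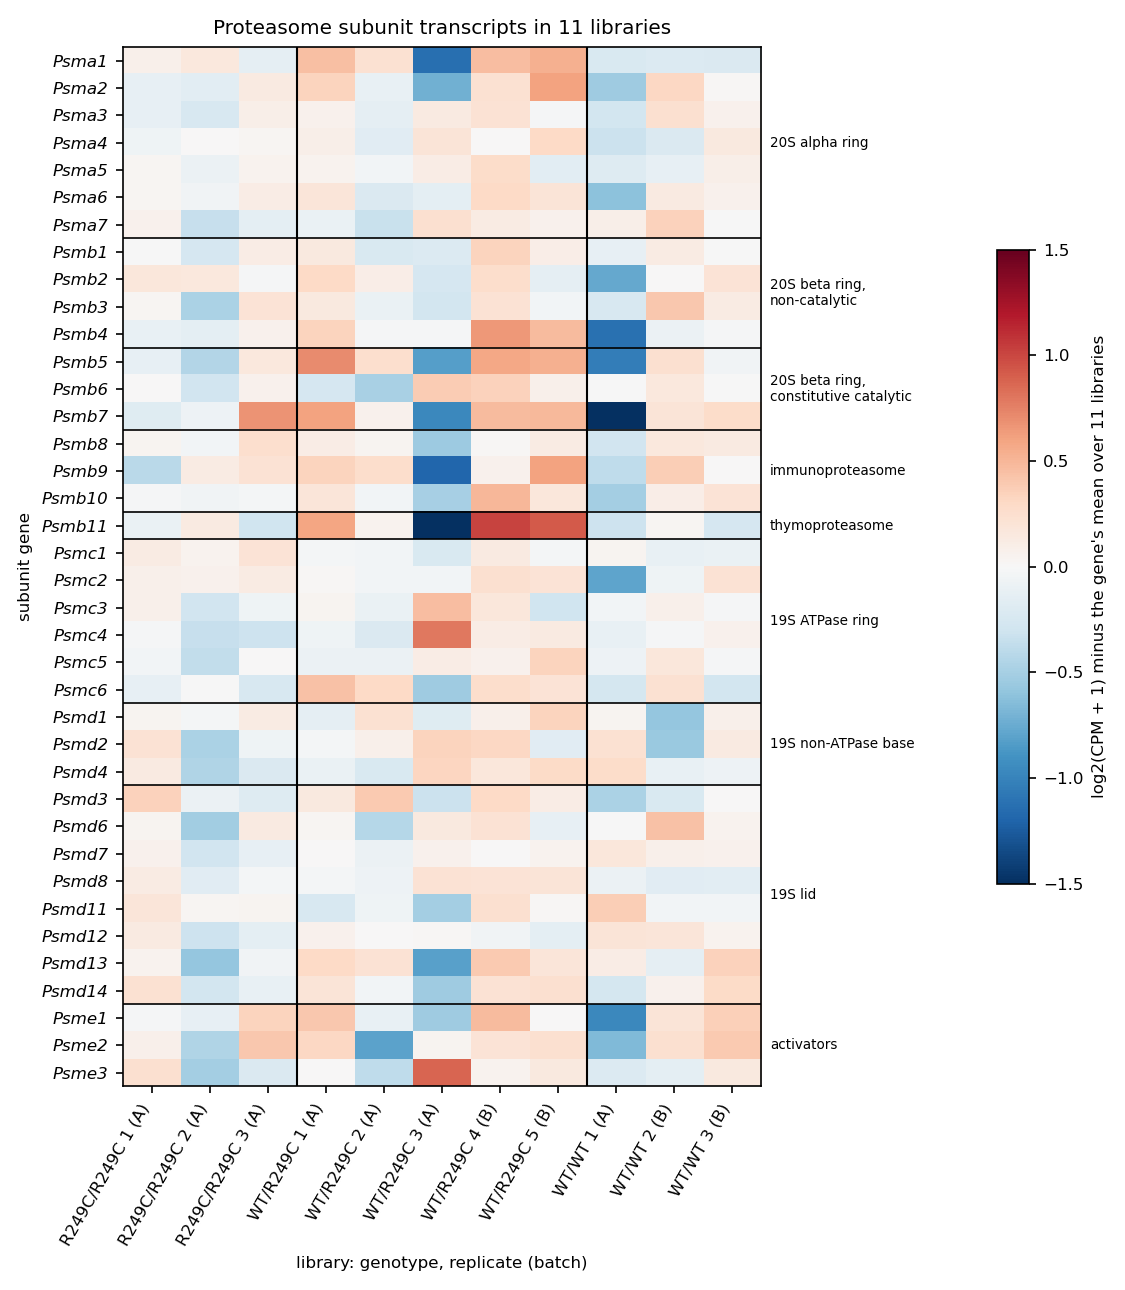
Level of the 38 subunit genes, rows grouped by role, in the 11 libraries, columns ordered R249C/R249C, WT/R249C and WT/WT with the batch in brackets; colour is log2(CPM + 1) minus the gene's mean over the libraries. The darkest blue cells are in WT/R249C replicate 3 and WT/WT replicate 1, which hold the lowest value of 10 and 12 subunits.

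The constitutive catalytic subunits were present in all libraries, at levels that did not separate the genotypes. Psmb5 had 33.0, 26.2 and 40.4 CPM in the R249C/R249C libraries, 59.3, 43.0, 19.9, 54.1 and 52.7 CPM in the WT/R249C libraries and 17.1, 42.8 and 34.8 CPM in the WT/WT libraries. Its lowest values were those of WT/WT replicate 1 and WT/R249C replicate 3, and all 3 groups overlapped. Psmb7 showed the same 2 low libraries, with 52.5, 56.5 and 95.4 CPM in R249C/R249C, 90.7, 62.4, 29.9, 83.4 and 84.1 CPM in WT/R249C and 19.6, 68.2 and 72.5 CPM in WT/WT. Psmb6 did not: it had 305, 249.9 and 318 CPM in R249C/R249C, 256, 217, 397, 386 and 319 CPM in WT/R249C and 303, 340.2 and 304 CPM in WT/WT libraries. WT/R249C replicate 3, low for Psmb5 and Psmb7, was the highest library for Psmb6.

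The immunoproteasome subunits overlapped between genotypes as well. Psmb8 had 386, 365 and 446 CPM in R249C/R249C, 405, 385, 257, 382 and 409 CPM in WT/R249C and 308, 419 and 413 CPM in WT/WT libraries. Apart from WT/R249C replicate 3 and WT/WT replicate 1, its libraries lay between 365 and 446 CPM. Psmb9 had 96.3, 139 and 148 CPM in R249C/R249C, 161, 153, 55.3, 133 and 193 CPM in WT/R249C and 97.9, 165 and 128 CPM in WT/WT libraries. Psmb10, the inducible trypsin-like subunit, had 161, 157 and 159 CPM in R249C/R249C, 184, 159, 114, 229.6 and 183 CPM in WT/R249C and 114, 174 and 187 CPM in WT/WT libraries. The R249C/R249C libraries of Psmb10 lay close together, inside the range of both other groups.

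Psmb11 spread most, and it did so within WT/R249C. It had 57.6, 68.1 and 50.2 CPM in the R249C/R249C libraries, 93.5, 64.3, 17.2, 126 and 118 CPM in the WT/R249C libraries and 49.9, 63.4 and 51.6 CPM in the WT/WT libraries. The lowest and the 3 highest of the 11 values were WT/R249C libraries, the 2 highest being replicates 4 and 5, whose labels disagree, and the R249C/R249C and WT/WT ranges overlapped. In bulk RNA, fewer cortical cells and less Psmb11 RNA per cortical cell cannot be told apart.

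**Figure D2:**
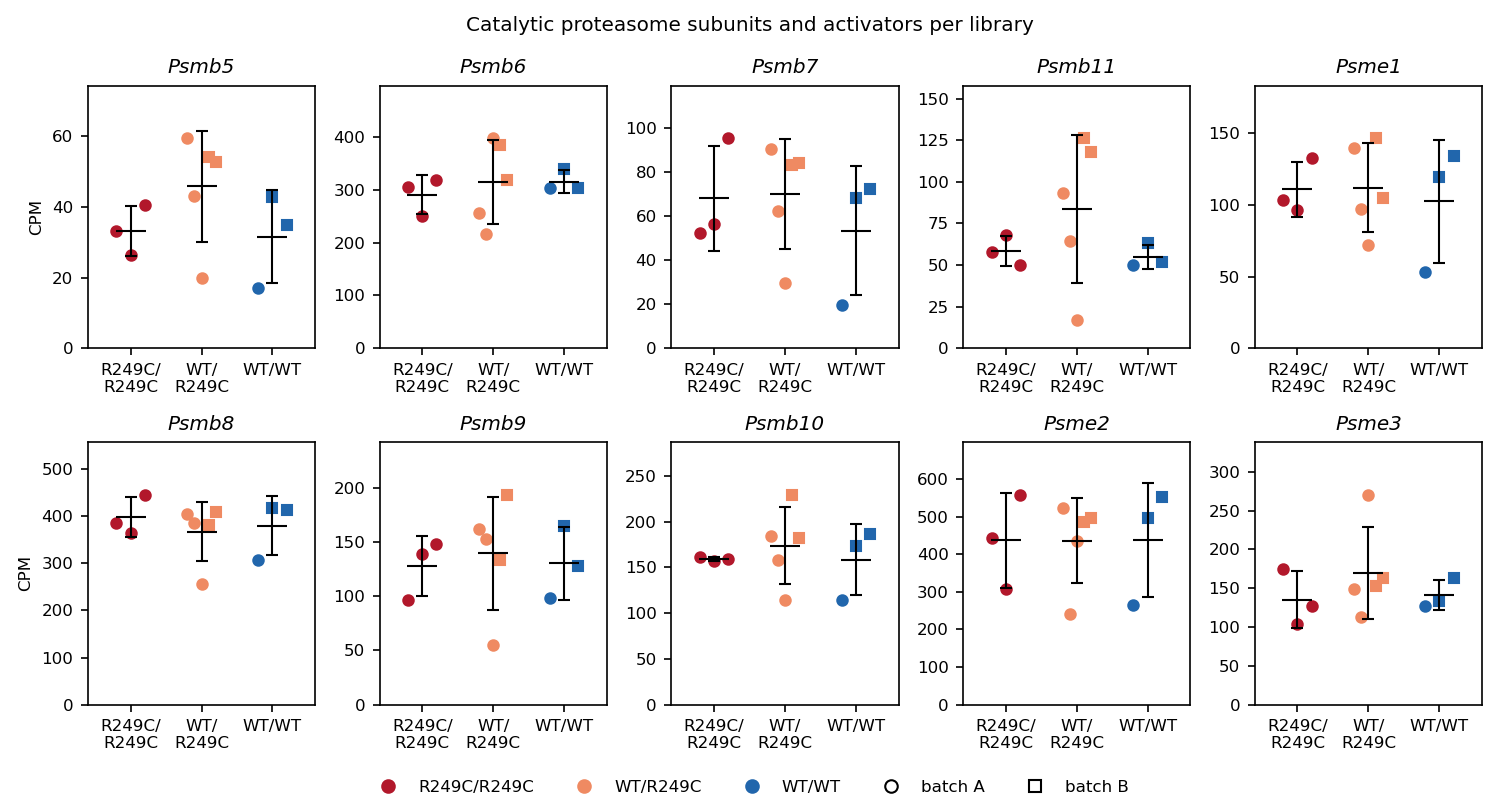
CPM of the catalytic subunits and activators by library, R249C/R249C left, WT/R249C in the middle and WT/WT right; circles are batch A, squares batch B, and bars the mean ± SD of 3, 5 and 3 libraries. Groups overlap in every panel, and Psmb11 runs from 17.2 to 126 CPM within WT/R249C.

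The 4 sequences printed here lie before the starts of the subunit genes whose swaps define the special proteasomes, and are shown because these genes form neighbouring pairs. Psmb9 shares its upstream region with Tap1, which encodes a chain of the peptide transporter of MHC class I loading: the starts are 225 bases apart on chromosome 17. Psmb5 and Psmb11 lie on opposite strands of chromosome 14 with starts 7314 bases apart. Sequences and positions are RefSeq's, build GRCm38.p6, which is not the build of the count table. They are the whole 225 bases between Psmb9 and Tap1, on the minus strand toward Psmb9, at chr17:34187331-34187555; the 250 bases before Psmb8, plus strand, chr17:34197945-34198194; before Psmb11, plus strand, chr14:54625060-54625309; and before Psmb5, minus strand, chr14:54617996-54618245. Capitals mark a match to the pattern searched for the antioxidant response element, TGANNNNGC on either strand, or, in Psmb8, for the interferon gamma-activated site, TTCNNNGAA.
between Psmb9 and Tap1: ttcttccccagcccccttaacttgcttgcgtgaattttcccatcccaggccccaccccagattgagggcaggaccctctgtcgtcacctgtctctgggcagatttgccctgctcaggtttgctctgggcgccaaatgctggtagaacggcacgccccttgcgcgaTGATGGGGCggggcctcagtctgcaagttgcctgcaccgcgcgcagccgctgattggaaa
Psmb8: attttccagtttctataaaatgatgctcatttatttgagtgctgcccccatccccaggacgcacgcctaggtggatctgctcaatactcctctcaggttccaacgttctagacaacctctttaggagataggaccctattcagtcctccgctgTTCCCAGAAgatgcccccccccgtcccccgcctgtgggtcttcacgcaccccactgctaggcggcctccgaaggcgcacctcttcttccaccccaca
Psmb11: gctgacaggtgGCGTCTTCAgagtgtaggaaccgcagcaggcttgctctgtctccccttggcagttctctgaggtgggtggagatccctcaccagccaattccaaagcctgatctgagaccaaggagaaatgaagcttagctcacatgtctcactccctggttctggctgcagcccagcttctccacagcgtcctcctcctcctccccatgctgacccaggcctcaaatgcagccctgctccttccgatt
Psmb5: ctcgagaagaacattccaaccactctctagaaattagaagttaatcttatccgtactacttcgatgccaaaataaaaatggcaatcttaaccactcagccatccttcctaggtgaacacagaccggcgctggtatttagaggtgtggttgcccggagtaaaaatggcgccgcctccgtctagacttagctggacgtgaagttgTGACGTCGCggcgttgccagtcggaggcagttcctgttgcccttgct

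TGANNNNGC was the pattern searched for the antioxidant response element, the motif through which Nfe2l1 raises proteasome genes after proteasome inhibition. In these windows a match to it ended 38 bases before the start of Psmb5 and 51 before that of Psmb9. In Psmb11 a match to its reverse complement ended 230 bases before the start. A match to so loose a pattern does not show that the element is there. The interferon gamma-activated site of Psmb8 ended 88 bases before the start. It reads as a match on both strands because the pattern searched, TTCNNNGAA, is its own reverse complement. RefSeq held the 250 bases before the start for 32 of the 38 subunit genes. Of these, 10 (31.2%) held a match to the pattern TGANNNNGC, against 35.1% of the 27025 promoters in the table. The interferon gamma-activated site was found in 1 (3.12%), Psmb8, against 7.18% of all. The interferon-stimulated response element, searched as GAAA, any 2 bases and GAAA, was found in 2 (6.25%), Psmd4 and Psmb3, against 3.04% of all, and the CCAAT box, searched as CCAAT, in 13 (40.6%) against 34.5%. All motifs were searched on both strands, and each share is a description of letters, not of binding.

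The balance between special and constitutive subunits was described as the log2 ratio of counts per transcript length within a library. Psmb8 outnumbered Psmb5 in each library: the mean log2 ratio was 2.75 ± 0.17 in R249C/R249C (SD, n = 3), 2.22 ± 0.37 in WT/R249C (n = 5) and 2.82 ± 0.45 in WT/WT (n = 3). Psmb10 also outnumbered Psmb7 in each, with 1.10 ± 0.47 in R249C/R249C, 1.20 ± 0.36 in WT/R249C and 1.58 ± 0.68 in WT/WT. Psmb9 stood below Psmb6 in each, with -1.97 ± 0.42 in R249C/R249C, -2.01 ± 0.98 in WT/R249C and -2.07 ± 0.30 in WT/WT. Thus, per length, Psmb8 and Psmb10 stood above the constitutive subunits they replace, and Psmb9 stood below Psmb6, in all 11 libraries.

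Per transcript length, Psmb11 stood below Psmb5 in each library. The log2 ratio was -1.41 ± 0.53 in R249C/R249C, -1.56 ± 0.58 in WT/R249C and -1.35 ± 0.56 in WT/WT. This direction rests on the transcript lengths used, 4247 bases for Psmb11 and 899 for Psmb5. In CPM, not divided by length, Psmb11 stood above Psmb5 in every library but WT/R249C replicate 3, at 17.2 against 19.9 CPM there. For all 4 ratios the genotypes overlapped. The largest difference of means was in the ratio of Psmb8 to Psmb5, where WT/R249C had 1.92, 2.30, 2.84, 1.96 and 2.10 against 3.32, 2.43 and 2.71 in WT/WT. Only WT/R249C replicate 3 reached into the WT/WT range. The ratio of Psmb10 to Psmb7 in WT/WT rested on replicate 1, at 2.37, against 1.18 and 1.19 in replicates 2 and 3.

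**Figure D3:**
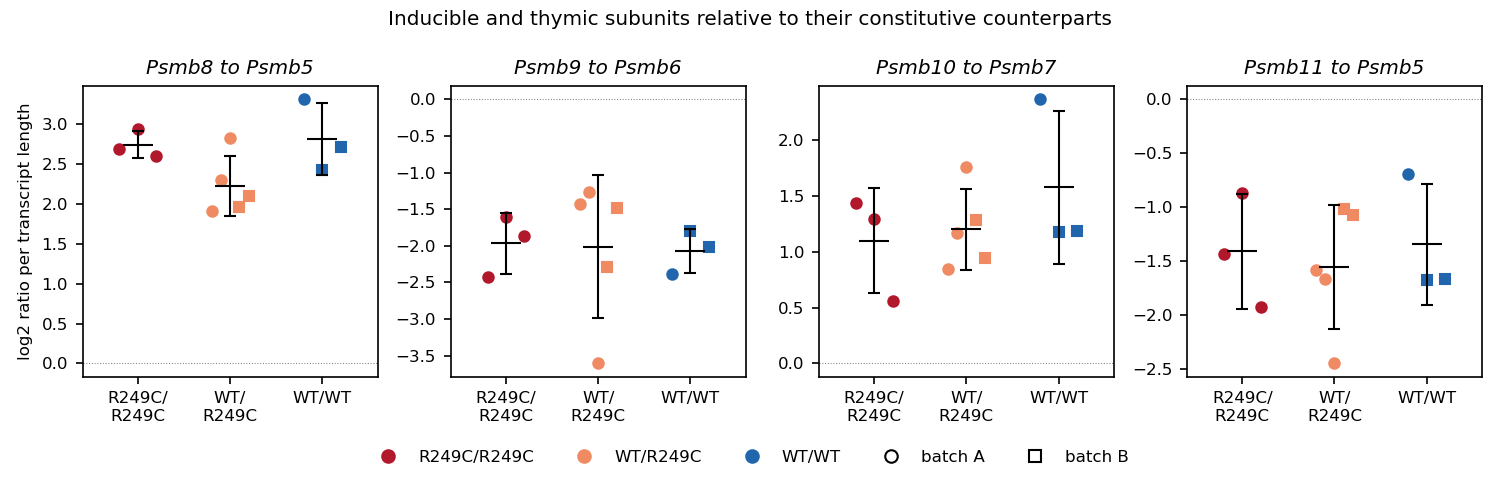
Log2 ratio, per transcript length, of inducible or thymic to constitutive catalytic subunits in each library, R249C/R249C left, WT/R249C in the middle and WT/WT right; circles are batch A, squares batch B, bars the mean ± SD. Ratios of Psmb8 to Psmb5 and Psmb10 to Psmb7 lie above 0 in all 11 libraries, the other ratios below 0. For Psmb11 to Psmb5 this rests on transcript lengths of 4247 and 899 bases.

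The activators cap the core in place of the 19S particle. Psme1 had 104, 96.2 and 133 CPM in R249C/R249C, 139.9, 97.0, 72.1, 147 and 105 CPM in WT/R249C and 53.5, 119.8 and 134 CPM in WT/WT libraries. Its partner Psme2 had 444, 308 and 558 CPM in R249C/R249C, 522, 241, 434, 486 and 496 CPM in WT/R249C and 264, 497 and 552 CPM in WT/WT libraries. Both were low in WT/WT replicate 1 relative to the other WT/WT libraries, and the genotypes overlapped. The near-identical copy Psme2b had 12.0 to 25.0 CPM, so part of the Psme2 reads may have been split between them, while the listed pseudogenes of Psmb5, Psmb6 and Psmb7 stayed at or below 1.39 CPM. Psme3, which forms a separate nuclear activator, had 175, 104 and 127 CPM in R249C/R249C, 148, 113, 271, 153 and 164 CPM in WT/R249C and 128, 133 and 164 CPM in WT/WT libraries, again overlapping.

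The first comparison asked how subunit transcripts of homozygous R249C/R249C cells stood against WT/WT. No subunit passed the test. All 38 were tested in edgeR's quasi-likelihood fit, which took in all libraries and had a batch term, and 0 of them, as 0 of the 26980 genes (0%), passed at a Benjamini-Hochberg adjusted p of 0.05. At an unadjusted p under 0.05 stood 3 subunits, all with positive values, against 865 genes (3.21%) in either direction and 458 (1.7%) with positive values. Leaving out WT/WT replicate 1 or the batch term brought these 3 to 0, and there were 5 without WT/R249C replicate 1, without the 2 libraries of conflicting labels or with the replicate block. The share of all genes in those fits is not given here, and the 3.21% belongs to the main fit, so whether all genes moved alike is not known. By role, the fold change was positive for 6 of 7 alpha-ring, 4 of 4 non-catalytic beta-ring, 3 of 3 constitutive catalytic, 3 of 3 immunoproteasome, 4 of 6 ATPase, 1 of 3 other base, 4 of 8 lid and 2 of 3 activator genes, and for Psmb11. In all, 28 were positive and 10 negative, against 49% of all genes positive, and the median log2 fold change was 0.21 over the subunits and -0.02 over all genes tested. This offset depended on the batch term and on the libraries of conflicting labels. Within batch A, where WT/WT replicate 1 stands alone against 3 R249C/R249C libraries, the medians were 0.20 over the subunits and 0.20 over all genes, and without the batch term they were 0.02 and -0.02. Without WT/R249C replicates 4 and 5 they were 0.19 and 0.20.

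The subunits of smallest unadjusted p were Psmb4, Psmc2 and Psma6. Psmb4, a non-catalytic beta subunit, had 106, 104 and 121 CPM in R249C/R249C against 52.4, 108 and 114 CPM in WT/WT libraries. Its batch-adjusted log2 fold change was 0.83 (95% interval 0.31 to 1.34, edgeR adjusted p = 1), and 0.32 without the batch term. Psmc2, an ATPase of the cap, had 212, 212 and 220.5 CPM in R249C/R249C against 116, 192 and 234 CPM in WT/WT, with a log2 fold change of 0.64 (0.22 to 1.06, edgeR adjusted p = 1), and 0.30 without the batch term. In both genes WT/WT replicate 1 was the lowest library, and another WT/WT library lay within or above the R249C/R249C range. Psma6, an alpha-ring subunit, had 158, 149 and 166 CPM in R249C/R249C against 100.5, 169 and 161 CPM in WT/WT, with a log2 fold change of 0.50 (0.05 to 0.95), and 0.18 without the batch term. Without WT/WT replicate 1 the fold changes were 0.58 for Psmb4, 0.39 for Psmc2 and 0.36 for Psma6. In that fit batch A has no WT/WT library, so these values rest on the batch term, to which only WT/R249C libraries link both batches. The mean CPM of R249C/R249C and of batch B WT/WT libraries were 110.3 and 111.0 for Psmb4, 214.8 and 213.0 for Psmc2. For Psma6 they were 157.5 and 165.2.

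DESeq2 on the same design called 408 genes (1.51%), of which 158 were higher (0.586%), and among them Psmb4 (log2 fold change 0.85, adjusted p = 0.00452) and Psmc2 (0.66, adjusted p = 0.00283). limma voom called 0 genes. The next positive values in edgeR were those of Psmb7, at 1.14 (95% interval -0.18 to 2.46), and Psma4, at 0.27 (-0.09 to 0.64). Psma4 is an alpha-ring subunit and had 173, 181 and 184 CPM in R249C/R249C against 144, 156 and 199 CPM in WT/WT. Among the immunoproteasome genes the fold changes were 0.29 for Psmb8 (-0.27 to 0.84), 0.32 for Psmb9 (-0.74 to 1.37) and 0.41 for Psmb10 (-0.16 to 0.98), and Psmb11 had 0.59 (-0.77 to 1.94). These intervals span both directions, so neither a rise nor a fall was detectable.

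Negative values were small. Psmd12, a lid subunit, had 209, 153 and 172 CPM in R249C/R249C against 217, 215 and 197 CPM in WT/WT, with a log2 fold change of -0.27 (95% interval -0.69 to 0.14). Psmd7 had 253, 198 and 221 CPM in R249C/R249C against 272, 255 and 252 CPM in WT/WT, with -0.19 (-0.55 to 0.18). The highest R249C/R249C library overlapped WT/WT in both. Psma7 had 430.4, 323 and 374 CPM in R249C/R249C against 439, 525 and 410.2 CPM in WT/WT, with -0.16 (-0.63 to 0.31). Psmc4 had 248, 197 and 203 CPM in R249C/R249C against 232, 248.6 and 262 CPM in WT/WT, with -0.16 (-0.75 to 0.42). Psmd4, a ubiquitin receptor of the cap, had 239, 158 and 186 CPM in R249C/R249C against 263, 201 and 205 CPM in WT/WT, with -0.16 (-0.72 to 0.40). For Psmc4 and Psmd4 the direction was not stable, and limma voom gave values above 0 for both.

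By plain separation of libraries, 2 of the 38 subunits (5.26%) had every R249C/R249C library above every WT/WT library, against 3.42% of the genes tested, and 0 had every library below, against 4.68%. Psma1 had 150.3, 159 and 129.9 CPM in R249C/R249C against 121, 124 and 123 CPM in WT/WT. Psmc1 had 219, 208 and 231 CPM in R249C/R249C against 206, 186 and 187 CPM in WT/WT. Their log2 fold changes were 0.49 (95% interval -0.49 to 1.47) and 0.25 (-0.16 to 0.65), and neither passed the test.

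**Figure D4:**
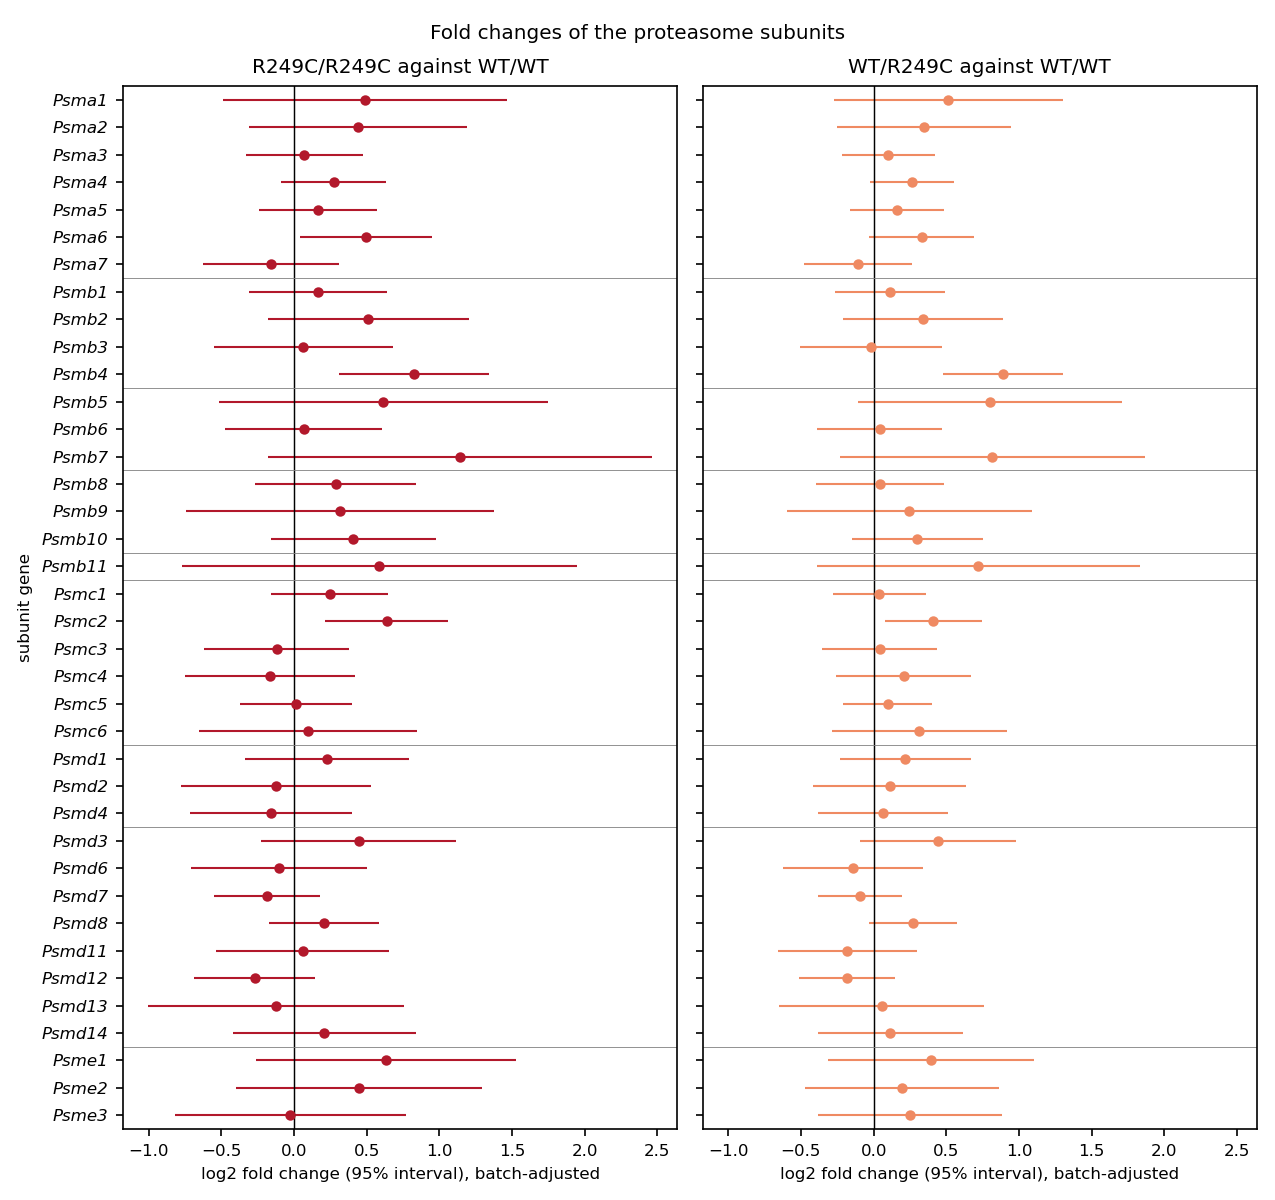
Batch-adjusted log2 fold change of each subunit gene with its 95% interval from edgeR, R249C/R249C against WT/WT on the left and WT/R249C against WT/WT on the right, positive where the mutant genotype is higher; both panels share the WT/WT libraries and the x axis. The intervals of Psmb4 and Psmc2 lie above 0 in both panels and that of Psma6 in the left one, and no gene passed the adjusted test.

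The second comparison set heterozygous WT/R249C against the same WT/WT libraries, so its values are not independent of the first. Again 0 of 38 subunits and 0 of 26980 genes (0%) passed in edgeR, and 2 subunits, Psmb4 and Psmc2, stood at an unadjusted p under 0.05, both positive, against 940 genes (3.48%) in either direction and 516 (1.91%) with positive values. That count of 2 was 10 without WT/R249C replicate 3 and 7 in limma voom. It was 4 in DESeq2, with the replicate block or without WT/R249C replicates 4 and 5. It was 1 without the batch term or with these 2 libraries counted as R249C/R249C. The 3.48% belongs to the main fit and is no measure for these counts. In limma voom and in DESeq2 more genes than the 940 of the main fit stood at that p too. For the other fits the share of all genes is not given here, so whether all genes moved alike is not known. By role, the fold change was positive for 6 of 7 alpha-ring, 3 of 4 non-catalytic beta-ring, 3 of 3 constitutive catalytic, 3 of 3 immunoproteasome, 6 of 6 ATPase, 3 of 3 other base, 4 of 8 lid and 3 of 3 activator genes, and for Psmb11. In all, 32 were positive and 6 negative, against 51.5% of all genes positive, with a median of 0.20 over the subunits and 0.02 over all genes. Within batch A the median was 0.21 over the subunits and 0.40 over all genes, and within batch B 0.19 and -0.04. Without WT/R249C replicates 4 and 5 it was 0.21 over the subunits and 0.28 over all genes. The median of the subunits thus lay below that of all genes in batch A and above it in batch B.

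Psmb4 had 145, 114, 114, 181 and 161 CPM in WT/R249C libraries against 52.4, 108 and 114 CPM in WT/WT. Its log2 fold change was 0.89 (95% interval 0.48 to 1.30, edgeR adjusted p = 1), 1.21 within batch A and 0.67 within batch B, where both WT/R249C libraries have conflicting labels. DESeq2 called 275 genes (1.02%), 157 of them higher (0.582%), with Psmb4 (log2 fold change 0.86, adjusted p = 5.7e-05) as its single subunit, and limma voom called 0. Psmc2 had 204, 196, 195, 238 and 232 CPM in WT/R249C against 116, 192 and 234 CPM in WT/WT, with 0.41 (0.08 to 0.75), and 0.19 without WT/WT replicate 1. Psma6 had 174, 132, 139, 189.5 and 176 CPM in WT/R249C against 100.5, 169 and 161 CPM in WT/WT, with 0.33 (-0.03 to 0.69). In all 3 genes the WT/R249C range reached into that of WT/WT replicates 2 and 3.

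Psma4 had 191, 159.9, 207, 181 and 222 CPM in WT/R249C against 144, 156 and 199 CPM in WT/WT, with 0.27 (95% interval -0.03 to 0.56). Psmd8, a lid subunit, had 112, 108, 133, 132 and 130.4 CPM in WT/R249C against 107, 101 and 102 CPM in WT/WT, with 0.27 (-0.03 to 0.57). It was the only subunit with every WT/R249C library above every WT/WT library, 1 of 38 (2.63%), against 1.1% of the genes tested, and 0 lay wholly below, against 1.83%. The catalytic genes had positive values with wide intervals: 0.80 for Psmb5 (-0.11 to 1.71), 0.82 for Psmb7 (-0.23 to 1.87), 0.72 for Psmb11 (-0.39 to 1.83), 0.30 for Psmb10 (-0.15 to 0.75), 0.25 for Psmb9 (-0.60 to 1.09) and 0.04 for Psmb8 (-0.39 to 0.48).

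On the negative side, Psmd12 had 199, 191, 193, 183 and 172 CPM in WT/R249C against 217, 215 and 197 CPM in WT/WT, with -0.18 (95% interval -0.51 to 0.14). Psmd11, a lid subunit, had 213, 241, 176, 299 and 256 CPM in WT/R249C against 326, 245 and 245 CPM in WT/WT, with -0.18 (-0.66 to 0.30). Its direction turned with the batch: -0.67 within batch A, where WT/WT replicate 1 is its highest library, and 0.22 within batch B. Psmd7 had 242, 228, 253, 242 and 250.1 CPM in WT/R249C against 272, 255 and 252 CPM in WT/WT, with -0.10 (-0.39 to 0.19). Psmd6, a lid subunit, had 121, 88.0, 131, 138 and 109 CPM in WT/R249C against 118, 160.5 and 123 CPM in WT/WT, with -0.14 (-0.62 to 0.34). Psma7 had 385, 326, 489, 449.5 and 433 CPM in WT/R249C against 439, 525 and 410.2 CPM in WT/WT, with -0.11 (-0.48 to 0.26). The groups overlapped in each of these genes. A test of the WT/R249C effect in batch B minus that in batch A called 0 of 25519 genes (0%) and 0 subunits. At an unadjusted p under 0.05 stood 2 subunits, Psmd11 at 0.93 and Psmd4 at 0.72 (edgeR adjusted p = 0.983 for both), against 998 genes (3.91%).

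The third comparison needs no WT/WT library: it set R249C/R249C against WT/R249C replicates 1 to 3, all of batch A. It called 0 of 38 subunits and 0 of 23695 genes (0%) in edgeR, with 0 subunits at an unadjusted p under 0.05 against 256 genes (1.08%). DESeq2 called 31 genes (0.131%), 10 of them higher (0.0422%), and 0 subunits, and limma voom 0 genes. Fold changes were positive for 20 subunits and negative for 18, against 50.8% of genes positive, with medians of 0.02 over the subunits and 0.01 over all genes. This balance turned on single libraries: 11 were positive and 27 negative without WT/R249C replicate 3, 31 and 7 without R249C/R249C replicate 2, 26 and 12 without WT/R249C replicate 1, and 15 and 23 without R249C/R249C replicate 3 or in limma voom. Positive values were found in 3 of 7 alpha-ring, 3 of 4 non-catalytic beta-ring, 2 of 3 constitutive catalytic, 3 of 3 immunoproteasome, 2 of 6 ATPase, 1 of 3 other base, 3 of 8 lid and 2 of 3 activator genes, and in Psmb11.

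Every R249C/R249C library lay above every batch A WT/R249C library for 3 of 38 subunits (7.89%), against 3.45% of the genes tested, and below for 0, against 5.41%. Psmd11 had 285, 256 and 259.6 CPM in R249C/R249C against 213, 241 and 176 CPM in WT/R249C, with a log2 fold change of 0.38 (95% interval -0.13 to 0.89). Psmc1 had 219, 208 and 231 CPM in R249C/R249C against 197, 195 and 171 CPM in WT/R249C, with 0.26 (-0.17 to 0.69). Psmc2 had 212, 212 and 220.5 CPM in R249C/R249C against 204, 196 and 195 CPM in WT/R249C, with 0.15 (-0.22 to 0.52). WT/R249C replicate 3 was the lowest library of the comparison for all 3, and without it the values were 0.22 for Psmd11, 0.14 for Psmc1 and 0.08 for Psmc2. Psma6 had 0.12 (-0.36 to 0.60) and Psmb8 had 0.21 (-0.42 to 0.84).

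Among the negative values named here, all but that of Psmc6 lay nearer 0 or turned without the same library, and that of Psmc6 was larger in size. Psmc4 had 248, 197 and 203 CPM in R249C/R249C against 241, 217 and 436 CPM in WT/R249C, with -0.40 (95% interval -1.08 to 0.29). Psme3 had 175, 104 and 127 CPM in R249C/R249C against 148, 113 and 271 CPM in WT/R249C, with -0.32 (-1.20 to 0.57). Psmc3, an ATPase, had 248, 192 and 224 CPM in R249C/R249C against 241, 218 and 324 CPM in WT/R249C, with -0.19 (-0.67 to 0.30). In these 3 genes WT/R249C replicate 3 was the highest of the 6 libraries, and without it the values were -0.10 for Psmc4, 0.04 for Psme3 and -0.07 for Psmc3. Psmc6, an ATPase, had 123, 133 and 113 CPM in R249C/R249C against 182, 165 and 92.3 CPM in WT/R249C, with -0.23 (-1.02 to 0.55), and -0.52 without that library. Psmd2, a docking subunit of the base, had 438, 271 and 362 CPM in R249C/R249C against 369, 399 and 476 CPM in WT/R249C, with -0.17 (-0.73 to 0.40), and -0.12 without it. Psmb11 had 0.0058 (-1.501 to 1.513), and -0.45 without WT/R249C replicate 3, so the comparison does not bound its difference closely.

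Across libraries, Psmb11 was set against the mean log2(CPM + 1) of 9 other genes used as a cortical epithelial list (Prss16, Ccl25, Ctsl, Cxcl12, Dll4, Foxn1, Tbata, Ly75 and Enpep). The higher the list stood, the higher stood Psmb11: Pearson's r was 0.891 (n = 11, permutation p = 3e-05, Bonferroni-adjusted over the 4 relations computed 0.00012) and Spearman's rho 0.955 (permutation p = 7e-05, adjusted 0.00028). WT/R249C replicate 3 had the lowest list mean, 6.93, and replicates 4 and 5 the highest, 8.17 and 8.10. In WT/R249C replicate 3, Dll4 was listed at 0 CPM and entered the mean as 0. Of the other list genes, Cxcl12 was at its lowest there, at 324 CPM, while Prss16 stood at 693 CPM, above all libraries but WT/R249C replicate 4. The list without Dll4 was not tested. Without WT/R249C replicate 3 and WT/WT replicate 1, the libraries farthest from the median of the list, r was 0.900 (n = 9, exact permutation p = 0.000728, adjusted 0.00291). Without WT/R249C replicate 3 alone it was 0.871 (n = 10, permutation p = 0.00073, adjusted 0.00292). Within batch A r was 0.834 (n = 7, exact permutation p = 0.000992, adjusted 0.00397), and batch B, with 4 libraries, is too small for a value.

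**Figure D5:**
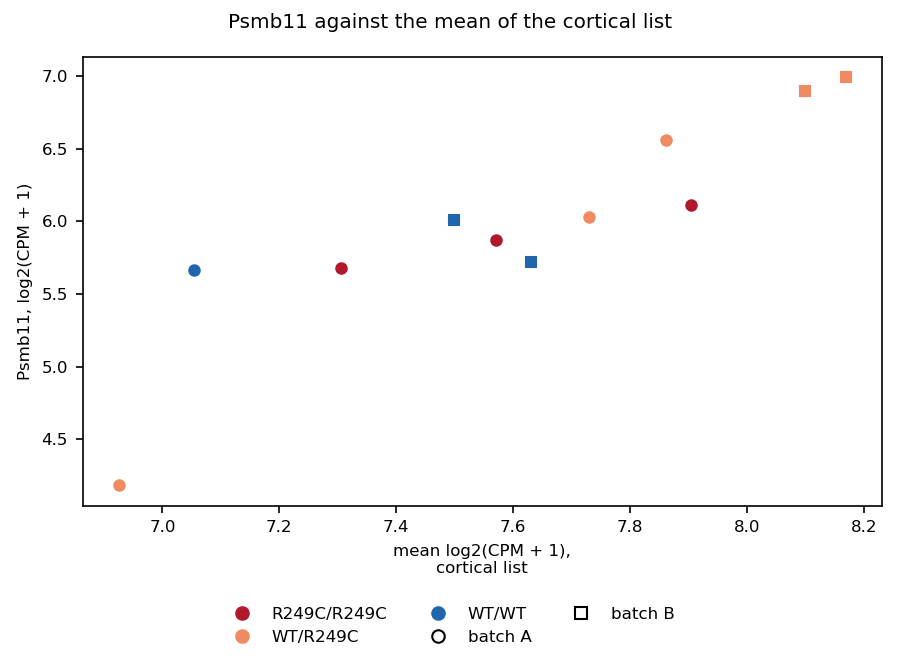
Psmb11 (vertical axis) against the mean of the 9 genes of the cortical list (horizontal axis), both in log2(CPM + 1), each point a library, circles batch A, squares batch B. Psmb11 climbs with its list (r = 0.891), and the lowest list mean, 6.93, is WT/R249C replicate 3, where Dll4 was at 0 CPM.

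The genes whose pattern over the 11 libraries was most like that of Psmb11, by Spearman's rho of log2(CPM + 1) over the 10917 genes with a mean of at least 10 CPM, were Psma1 (0.936), Ccl25 (0.936), Rpl10a (0.927), Cir1 (0.909) and Emc7 (0.909). Ccl25 is the thymocyte-attracting chemokine of cortical epithelium, and Psma1, another subunit, is an alpha-ring gene found in all cells. The other genes of the cortical list ran from the cysteine protease gene Ctsl, with 0.891 at rank 10, through Cxcl12 (0.736), Dll4 (0.691), Tbata (0.645), Enpep (0.536), the serine protease gene Prss16 (0.473) and Foxn1 (0.227) to Ly75, with -0.145 at rank 6751. Psmb5, the neighbour of Psmb11 and the subunit it replaces, ranked 94, with 0.791, and Psmb8 ranked 3939, with 0.127. These points share libraries and depth, and the values are a description.

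Around the proteasome, 29 genes were read beside it: assembly chaperones, cap partners, ubiquitin, shuttle and transcription factors and the class I peptide-loading genes. Of these 28 were tested. The testis-type alpha subunit gene Psma8 was listed at 0 in all libraries, which allows up to 0.0495 CPM in the shallowest. In edgeR 0 of the 28 passed in any comparison. In R249C/R249C against WT/WT, 15 were positive and 13 negative with a median of 0.03, and 1 stood at an unadjusted p under 0.05, a share near the 3.21% of all genes. That gene was Tap2, the other chain of the peptide transporter, with 394, 374 and 434 CPM in R249C/R249C against 271, 306 and 331 CPM in WT/WT and a log2 fold change of 0.51 (95% interval 0.05 to 0.98, edgeR adjusted p = 1). Every R249C/R249C library of Tap2 lay above every WT/WT library, as for 3.42% of the genes tested. Psmd10, a chaperone of ATPase ring assembly, had 0.67 (-0.13 to 1.47), the shuttle factor Ubqln4 had -0.87 (-2.01 to 0.26) and Nfe2l1 had -0.39 (-0.95 to 0.17).

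In WT/R249C against WT/WT, 15 of the 28 were positive and 13 negative with a median of 0.08. Tap2 had 362, 467, 318, 375 and 416 CPM in WT/R249C against the WT/WT values just given, with 0.40 (95% interval 0.03 to 0.77, edgeR adjusted p = 1), and here WT/R249C replicate 3 overlapped WT/WT. The peptide-trimming enzyme gene Erap1 had 0.70 (-0.08 to 1.48), the polyubiquitin gene Ubb had -0.28 (-0.74 to 0.18) and the assembly chaperone gene Psmg2 had -0.33 (-0.99 to 0.32). In R249C/R249C against WT/R249C, 17 were positive and 11 negative with a median of 0.05. The assembly chaperone gene Psmg3 had 0.52 (-0.75 to 1.80), Ubb had 0.23 (-0.33 to 0.79), Ubqln4 had -0.79 (-1.79 to 0.22) and the assembly chaperone gene Psmg1 had -0.31 (-1.20 to 0.57). Tap1, which shares the printed 225 bases with Psmb9, had 277, 234 and 186 CPM in R249C/R249C, 221, 269, 217, 273 and 303 CPM in WT/R249C and 244, 271 and 252 CPM in WT/WT, with log2 fold changes against WT/WT of 0.04 in R249C/R249C and 0.06 in WT/R249C.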

How the data were processed

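RNA from sorted thymic epithelial cells was sequenced in 11 libraries. The authors deposited raw counts, whole numbers for each gene in each library. Tools named for mouse build mm39, per the submitters' processing notes, are StringTie, HISAT2 and FastQC. Versions, the annotation release, strand use and whether counts were tallied or derived from coverage are not given in the sources used here. Column names of batch A carry the word trimmed, those of batch B do not.

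Ensembl identifiers were matched to symbols by a GENCODE name table, and at least 99.7% of each library's counts fell on named genes. CPM use library totals. Transcript lengths come from GENCODE's principal transcripts on an older build. All genes were fitted in R 4.3.3 with edgeR 4.0.16 (robust quasi-likelihood, TMM, filterByExpr, two-sided, Benjamini-Hochberg, threshold 0.05): both mutant genotypes against WT/WT in all 11 libraries with batch as a term, and R249C/R249C against WT/R249C in 6 libraries of batch A. DESeq2 1.42.0 and limma 3.58.1 (voom) were run beside it. The edgeR step was tested on simulated data, where most of the changes put in were not called at that threshold. A lack of calls thus does not show that levels are equal. Correlations used a pseudocount of 1, with 100000 resamples or, for n under 10, exact permutation, and p-values were multiplied by the 4 relations computed, of which 3 are not reported here. The intervals are at 95%.

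Members and lists were chosen with earlier results of these data known. Values are given per library for catalytic subunits, activators and, per comparison, up to 5 members per direction of smallest raw p, and for 2 related genes per direction. Psma1 and the extremes of level and spread were named after their values were seen. Alternatives covered scaling, filtering, batch, the 2 libraries of conflicting labels, a replicate block and leaving out each library. Correlations without WT/R249C replicate 3 were added after seeing the data. Replicate numbers come from the titles; over 9 same-numbered pairs the correlation of deviations ran from -0.129 to 0.129, with 1 above 0.1, so they were not treated as pairs.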

Additional observations from a re-analysis of the deposited data

Results flagged for a closer look

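In WT/R249C, the group of 5 libraries, a single library stood apart by Dixon's gap for 4 of 42 values checked. Chance marks about 1 in 20 of independent values. These values share the same 5 libraries, so the count of 4 cannot be set against that rate. The library that stood apart was replicate 3 each time, the one of fewest counts. Psma1 had 64.6 CPM there, with the nearest other WT/R249C library at 167 CPM. Psmb8 had 257 CPM, with the nearest at 382 CPM, and Psmd13 had 46.4 CPM, with the nearest at 93.3 CPM. Psmc4 stood apart upward, at 436 CPM, with the nearest at 277 CPM.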

How the results depend on the processing

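The edgeR calls of 0 genes and 0 subunits were the same under each alternative run except DESeq2, which called 408, 275 and 31 genes in the 3 comparisons and 2, 1 and 0 subunits; limma voom called 0. The median of the subunits stayed between 0.13 and 0.28 for R249C/R249C against WT/WT with any library left out, 0.14 and 0.21 for WT/R249C against WT/WT and -0.08 and 0.11 for R249C/R249C against WT/R249C. For R249C/R249C against WT/WT it was 0.02 without the batch term, against -0.02 over all genes. Within batch A it was 0.20, against 0.20 over all genes. The replicate block gave 0 genes and 0 subunits and medians of 0.33, 0.33 and 0.02, with 0.30, 0.33 and 0.03 over all genes. Within batch A, with WT/WT replicate 1 alone, the difference of mean log2 ratio against WT/WT was -0.57 for Psmb8 to Psmb5, -1.27 for Psmb10 to Psmb7 and -0.71 for Psmb11 to Psmb5 in R249C/R249C, and -1.11 for Psmb10 to Psmb7 and -1.20 for Psmb11 to Psmb5 in WT/R249C, where batch B gave 0.62 for the last.

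The values whose direction turned passed no edgeR test. For R249C/R249C against WT/WT, counting the 2 contested libraries as R249C/R249C gave 0.037 for Psmc4 and 0.0089 for Psmd4, limma voom gave 0.0025 and 0.049, and leaving out each library gave -0.35 to 0.30 for Psmd4. For WT/R249C against WT/WT, Psmd11 was 0.22 in batch B and 0.023 in limma voom. Psmb8 was -0.035 in batch B, -0.027 with the contested libraries counted as R249C/R249C and -0.028 without the batch term. The replicate block gave 0.0027 for Psmd12 and 0.071 for Psmd6. Leaving out each library gave -0.32 to 0.22 for Psmd11, -0.16 to 0.00084 for Psmd7 and -0.032 to 0.12 for Psmb8. For R249C/R249C against WT/R249C, limma voom gave 0.037 for Psme3, -0.31 for Psmb9, -0.073 for Psmb10 and -0.32 for Psmb11, and leaving out each library gave -0.36 to 0.016 for Psmd2, -0.45 to 0.55 for Psmb11, -0.33 to 0.32 for Psmb9, -0.13 to 0.28 for Psmb10, -0.0074 to 0.37 for Psmb8 and -0.57 to 0.037 for Psme3. The cause was not tested. WT/WT in batch A is 1 library, the 2 contested libraries are all of WT/R249C in batch B, and the WT/R249C library of fewest counts is the most extreme: these limit each comparison.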
